A study of Mus musculus with 6 samples.

Results

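The HoxA cluster is a row of homeobox genes on mouse chromosome 6, and 10 of its genes were measured here among 19938 genes in all. Hoxa2, Hoxa3, Hoxa4, Hoxa5, Hoxa6, Hoxa7, Hoxa9, Hoxa10, Hoxa11 and Hoxa13 were taken by their symbols, each through the only probe set that carried the symbol alone. RNA of ascending aorta and of descending aorta went onto 3 Affymetrix gene arrays each. Both tissues came untreated from wild-type mice of the C57BL/6 strain, taken 13.5 days postcoitum. The 3 arrays of a segment are biological replicates by their titles, but which embryos or pools they hold is not stated, so every p-value measures the spread between these samples, which may be partly technical. Values are log2 expression after the authors' RMA, and a difference of 1 is a doubling. The study set neural crest-derived against mesoderm-derived smooth muscle of the aorta, and the ascending segment is the one largely supplied by cardiac neural crest.

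Hox genes encode transcription factors whose homeodomain binds DNA, usually together with TALE cofactors of the Pbx and Meis families. They lie on the chromosome in the order of their expression along the body axis: genes at the 3′ end, such as Hoxa2 and Hoxa3, are expressed up to the hindbrain and pharyngeal arches, those in the middle up to the neck and trunk, and those at the 5′ end in the lumbar and tail regions, limbs and urogenital tract. Cardiac neural crest comes from the posterior hindbrain and keeps Hox expression of that level, whereas the wall of the descending aorta is built at trunk level.

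Along the cluster the genes fell into 3 stretches. Hoxa2, Hoxa3 and Hoxa4 had fitted differences of ascending minus descending aorta between -0.14 and 0.16, and Hoxa10, Hoxa11 and Hoxa13 between -0.18 and 0.18. Hoxa5, Hoxa6, Hoxa7 and Hoxa9 had differences between -1.48 and -0.62, and each of these 4 genes stood lower on ascending replicates 1 and 2 than on any descending array. Ascending replicate 3 did not share this: on it the same 4 genes lay between -0.025 and 0.33 from their descending means. None of the 10 members passed an adjusted p of 0.05 in limma over all 6 arrays (adjusted p from 0.53 to 0.81), where 0 of all genes passed (0% of genes) and 790 were higher (3.96% of genes) and 1062 lower at an unadjusted p under 0.05. At an unadjusted p under 0.05 there were 3 members, Hoxa6, Hoxa7 and Hoxa9, all lower in ascending aorta, a level that 5.33% of all genes reached in that direction. With 3 against 3 arrays an exact permutation test cannot go below p = 0.1, so the single genes rest on limma.

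The array labelled ascending replicate 3 stands apart and bears on every value of the middle stretch. Across genes its mean correlation was 0.988 with the other ascending arrays and 0.996 with the descending arrays, so over the whole transcriptome too it lay with the segment its label does not name. The cause was not tested. Values without it are given for the HoxA genes, their paralogs of groups 2 to 9 and genes of non-marker lists that passed without it. For the lists of markers, the genes that passed without it are counted or named. Without it 933 genes passed (4.68% of genes), 412 higher and 521 lower in ascending aorta. Since its own values set this array apart, p-values and standard errors without it are likely too small. Descending replicate 1 differs in Xist, which silences an X chromosome in female cells: it had 5.80 against 10.1 to 11.2 on the other 5 arrays, and it is named below where it turns a direction. The smooth muscle actin gene Acta2 lay between 13.6 and 13.7 in ascending and between 13.7 and 13.8 in descending aorta. Smooth muscle myosin Myh11 lay between 9.42 and 10.4 in ascending and between 10.4 and 10.6 in descending aorta. Averaged over the arrays they lay at percentiles 99.9 and 86.2 of all genes. Myh11 differed by -0.53, and its groups did not overlap, as for 8.95% of all genes in that direction. Of 7 smooth muscle markers 4 had a higher and 3 a lower mean in ascending aorta. Their median difference was 0.047, and 0.17 without ascending replicate 3. In that fit 1 of the 7 passed, Lmod1, higher by 0.54 (adjusted p = 0.040 by limma), where 4.68% of all genes passed in either direction.

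**Figure D1:**
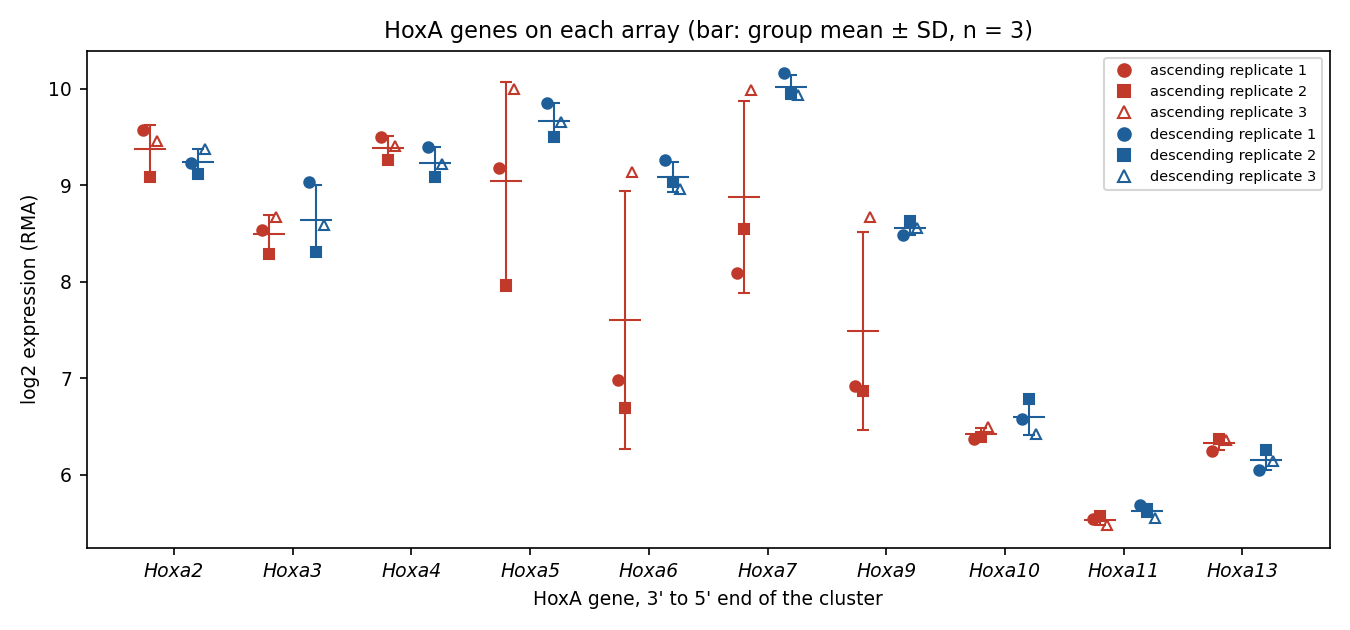
Log2 expression of the 10 HoxA genes in cluster order on each array, ascending aorta in red at the left of each gene and descending aorta in blue at the right, with group means and SD (n = 3). For Hoxa5, Hoxa6, Hoxa7 and Hoxa9 ascending replicates 1 and 2 lie below all descending arrays and ascending replicate 3 lies among or above them.

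The 4 genes of the middle stretch are those whose range over the arrays reached 1, and the upstream sequences of these genes are shown. The windows are the 250 bases before the annotated start on the minus strand of GRCm38.p6, from RefSeq, at chr6:52204588-52204837 for Hoxa5, chr6:52208673-52208922 for Hoxa6, chr6:52218574-52218823 for Hoxa7 and chr6:52227371-52227620 for Hoxa9. The capitals mark CCAAT on either strand in Hoxa5 and Hoxa6 and TTTATG in Hoxa7.
Hoxa5: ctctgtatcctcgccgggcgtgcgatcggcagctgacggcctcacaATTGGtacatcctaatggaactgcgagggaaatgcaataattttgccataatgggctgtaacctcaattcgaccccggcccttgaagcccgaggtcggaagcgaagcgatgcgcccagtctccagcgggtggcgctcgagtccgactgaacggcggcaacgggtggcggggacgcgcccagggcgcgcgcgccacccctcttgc
Hoxa6: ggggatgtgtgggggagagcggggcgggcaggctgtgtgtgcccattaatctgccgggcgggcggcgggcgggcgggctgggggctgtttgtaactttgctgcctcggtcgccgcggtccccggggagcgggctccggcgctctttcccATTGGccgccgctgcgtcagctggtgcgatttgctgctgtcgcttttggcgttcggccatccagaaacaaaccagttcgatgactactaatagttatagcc
Hoxa7: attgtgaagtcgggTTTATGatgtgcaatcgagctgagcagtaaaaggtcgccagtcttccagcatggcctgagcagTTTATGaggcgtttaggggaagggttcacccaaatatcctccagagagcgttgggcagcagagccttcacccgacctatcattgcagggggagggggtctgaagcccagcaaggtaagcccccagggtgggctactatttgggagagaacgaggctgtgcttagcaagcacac
Hoxa9: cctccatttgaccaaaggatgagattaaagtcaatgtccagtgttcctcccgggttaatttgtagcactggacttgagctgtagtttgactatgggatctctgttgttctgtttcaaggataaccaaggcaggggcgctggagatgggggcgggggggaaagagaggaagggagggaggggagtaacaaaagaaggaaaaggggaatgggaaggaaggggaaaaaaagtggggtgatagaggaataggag

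These letters were searched for on both strands, together with other short motifs, in the windows of 9 of the 10 members. CCAAT, the box bound by NF-Y, stood 204 bases before the start of Hoxa5 and 101 bases before that of Hoxa6, and 33.9% of all 32851 windows hold it. TTTATG, a sequence that caudal-type homeodomain proteins (Cdx) can bind, occurred in Hoxa7 at 236 and at 173 bases before the start, and 10.8% of all windows hold it. AGGTCA, the half-site of retinoic acid receptors, was in 0 of the 10 windows of HoxA genes and in 14.0% of all windows. TATAAA, the TATA box, was in 1 window of Hoxa10 and in none of the 4 shown (12.4% of all windows). TGATTNAT, the joint site of Hox and Pbx proteins, was in the window of Hoxa2 and in none of the 4 shown (2.83% of all windows). The motifs do not overlap each other in the windows shown. GC content was 63.6% for Hoxa5, 65.2% for Hoxa6, 54.8% for Hoxa7 and 49.6% for Hoxa9, against a median of 52.4% over all windows. No searched motif was found in all 4 windows.

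At the 3′ end, Hoxa2, which gives the second pharyngeal arch its identity, stood at 9.57, 9.08 and 9.45 on ascending replicates 1 to 3 against 9.23, 9.11 and 9.37 on descending replicates 1 to 3. The groups overlapped, with the highest and the lowest value both in ascending aorta. The difference was 0.13 ± 0.14 (SE) with a 95% interval from -0.19 to 0.45. Hoxa3, which is needed for the third arch and its derivatives thymus, parathyroid and carotid body, stood at 8.53, 8.29 and 8.67 in ascending aorta and at 9.03, 8.30 and 8.59 in descending aorta. Descending replicate 1 was the highest of the 6 arrays. The difference of Hoxa3 was -0.14 ± 0.19 (SE, interval -0.58 to 0.29), and without descending replicate 1 it was 0.050. Hoxa4, a gene of the neck region, stood at 9.50, 9.26 and 9.41 in ascending aorta against 9.40, 9.08 and 9.22 in descending aorta. Its groups overlapped too, and the difference was 0.16 ± 0.11 (SE, interval -0.096 to 0.41). The differences of these 3 genes lay, without ascending replicate 3, between -0.23 and 0.15.

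Hoxa5, which patterns the neck and thoracic border and is needed for lung development, is the first gene of the middle stretch (probe set 10544768). It stood at 9.18, 7.95 and 10.0 on ascending replicates 1 to 3 against 9.85, 9.50 and 9.65 in descending aorta. The ascending arrays spanned the descending ones: replicates 1 and 2 lay below all of them and replicate 3 above all of them. The difference of -0.62 ± 0.45 (SE, adjusted p = 0.66 by limma) was therefore within the spread, and without ascending replicate 2, the lowest array, it was -0.078. Leaving out ascending replicate 3 instead gave -1.10 ± 0.31 (adjusted p = 0.097 by limma). Ascending replicates 1 and 2 differed from each other by 1.23 for Hoxa5, against 0.29 for Hoxa6, 0.053 for Hoxa9 and -0.46 for Hoxa7. Hoxb5 and Hoxc5 had the same order, with ascending replicate 1 above replicate 2 by 0.88 and 1.09.

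Hoxa6, its 5′ neighbour in the trunk group (probe set 10544774), stood at 6.98, 6.69 and 9.14 in ascending aorta against 9.26, 9.03 and 8.96 in descending aorta. Ascending replicates 1 and 2 lay more than 1 log2 unit below every descending array, and ascending replicate 3 lay within the descending range. The group means were 7.60 ± 1.33 in ascending and 9.08 ± 0.16 in descending aorta (SD, n = 3 each), a difference of -1.48 ± 0.57 (SE, adjusted p = 0.53 by limma). Hoxa6 fell, without ascending replicate 3, by 2.25 ± 0.13 on the log2 scale (SE, adjusted p = 0.000245 by limma), a 4.74-fold lower level in ascending aorta and the widest difference among the members in that fit.

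Hoxa7, which acts in thoracic patterning (probe set 10544779), stood at 8.09, 8.55 and 9.99 in ascending aorta against 10.2, 9.96 and 9.93 in descending aorta. Here ascending replicate 1 was the lowest array, where replicate 2 was the lowest for Hoxa5 and Hoxa6. The means were 8.87 ± 0.99 in ascending and 10.0 ± 0.13 in descending aorta (SD, n = 3 each), and the difference was -1.14 ± 0.43 (SE, adjusted p = 0.53 by limma). On the 5 arrays without ascending replicate 3 Hoxa7 fell by 1.70 ± 0.15 on the log2 scale (SE, adjusted p = 0.00113 by limma).

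Hoxa9, the first gene of the posterior Abdominal-B class in the cluster and also a regulator of blood stem cells (probe set 10544788), stood at 6.92, 6.87 and 8.67 in ascending aorta against 8.48, 8.63 and 8.56 in descending aorta. Ascending replicates 1 and 2 lay below all descending arrays, and ascending replicate 3 was the highest of the 6. The means were 7.49 ± 1.02 in ascending and 8.56 ± 0.074 in descending aorta (SD, n = 3 each), with a difference of -1.07 ± 0.44 (SE, adjusted p = 0.53 by limma). In the same 5 arrays Hoxa9 fell by 1.66 ± 0.093 on the log2 scale (SE, adjusted p = 0.000245 by limma). In that fit 3 of the 10 members passed, Hoxa6, Hoxa7 and Hoxa9, all lower, where 2.61% of all genes passed in that direction.

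At the 5′ end, Hoxa10, a gene of the lumbar region and the female reproductive tract, stood at 6.37, 6.39 and 6.49 in ascending aorta and at 6.58, 6.78 and 6.43 in descending aorta, a difference of -0.18 ± 0.10 (SE, interval -0.42 to 0.068). Hoxa11, needed for the forearm skeleton and kidney, stood at 5.54, 5.58 and 5.48 in ascending and 5.69, 5.64 and 5.56 in descending aorta, a difference of -0.096 ± 0.076 (SE). Hoxa13, which shapes digits, hindgut and umbilical arteries, stood at 6.25, 6.37 and 6.36 in ascending and 6.05, 6.25 and 6.15 in descending aorta, a difference of 0.18 ± 0.085 (SE, interval -0.019 to 0.38). The differences of Hoxa10, Hoxa11 and Hoxa13 were -0.21, -0.069 and 0.16 without ascending replicate 3. Over all arrays the groups of each overlapped, those of Hoxa13 through a single pair of nearly equal arrays. Averaged over the arrays, these 3 genes lay at percentiles 17.0 to 30.2 of all genes, and the deposited values carry no detection call, so whether these transcripts rose above background cannot be read here.

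**Figure D2:**
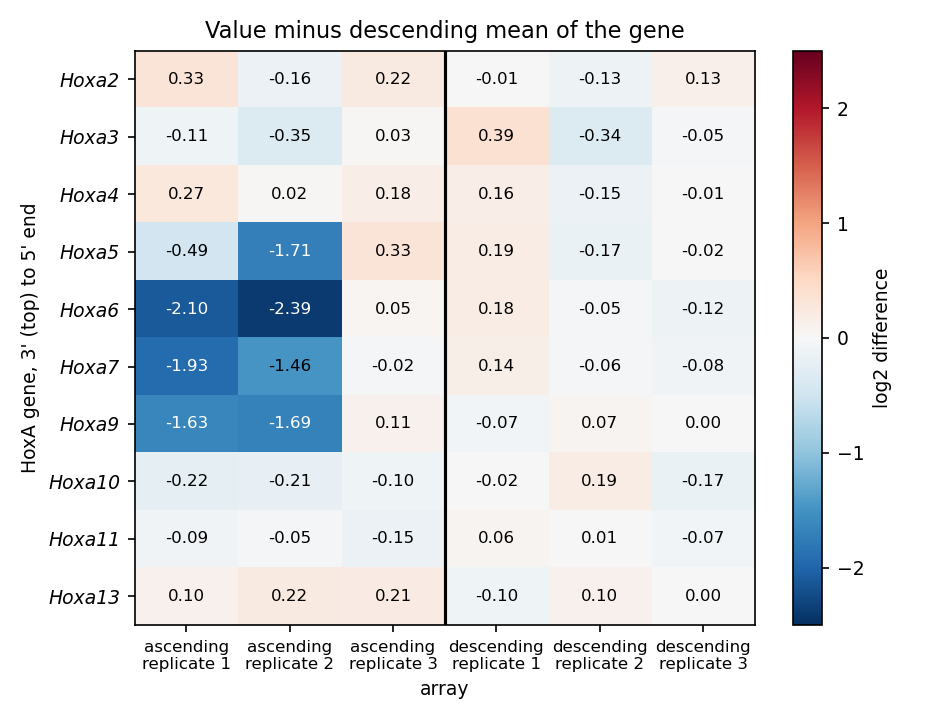
Each HoxA gene (rows, 3′ end at the top) on each array (columns, ascending left of descending) as its log2 value minus the gene's mean over the 3 descending arrays. The block from Hoxa5 to Hoxa9 is at -0.49 to -2.10 on ascending replicate 1 and at -1.46 to -2.39 on ascending replicate 2, while ascending replicate 3 and the descending arrays lie between -0.34 and 0.39 in all rows.

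As a list, the 10 members had a median difference of -0.16 and a mean of -0.43, beside a median of -0.021 over all genes. By their means 7 of 10 were lower, as were 11211 of all 19938 genes. The median of the members was -0.22 without ascending replicate 3. None of the 10 had groups that did not overlap, where 14.8% of all genes had such groups. Relative to the descending means, the median of the 4 middle genes was -1.78 and -1.70 on the first and second ascending array and 0.082 on the third, against 0.16, -0.056 and -0.051 on descending replicates 1 to 3. When ascending replicate 3 was left out, the groups of 5 members did not overlap, all lower (the middle 4 and Hoxa10), where 18.9% of all genes were lower in this way. As these members share their arrays, they are not independent of each other.

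Whether the difference between the segments shifts from one gene to the next was tested for the 9 neighbouring pairs with an exact two-sided permutation of the arrays. From Hoxa4 to Hoxa5 the difference shifted by -0.78 over all arrays (exact permutation p = 0.4), with shifts of -0.76, -1.74 and 0.15 on ascending replicates 1 to 3, against -0.021 to 0.023 on the descending arrays. From Hoxa9 to Hoxa10 it shifted by 0.89 (exact permutation p = 0.4), with 1.41, 1.48 and -0.22 on ascending replicates 1 to 3, against -0.17 to 0.11 on the descending arrays. Without ascending replicate 3 these shifts were -1.25 and 1.45. From Hoxa5 to Hoxa6 it shifted by -0.86, in the same direction on all 3 ascending arrays, at the smallest p this design allows (exact permutation p = 0.1, 0.45 after Benjamini-Hochberg adjustment over the 9 pairs). The same exact permutation p was reached from Hoxa11 to Hoxa13, with a shift of 0.27, and 0.19, 0.27 and 0.36 on ascending replicates 1 to 3. As the smallest p of this design is 0.1, no pair could pass at 0.05, and the shifts are given as a description.

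Both edges of the middle stretch could also be set against the genes around and between the members. On the 3′ side Skap2, a Src-kinase adaptor gene, differed by 0.25 ± 0.11 and Snx10, a sorting nexin gene, by 0.24 ± 0.094 (SE). Beyond the 5′ end Evx1, a homeobox gene next to Hoxa13, differed by -0.030, Hibadh by -0.049, Tax1bp1 by -0.044 and Jazf1 by 0.0087. Of the 6 flanking genes 0 passed over all arrays and 0 passed without ascending replicate 3 (limma). Over all arrays 1, Snx10, was higher at an unadjusted p under 0.05, as were 3.96% of all genes. The noncoding RNA gene Hoxaas2, which lies between Hoxa2 and Hoxa3, stood at 8.34, 8.61 and 8.20 in ascending aorta against 7.86, 7.76 and 8.10 in descending aorta. Its groups did not overlap, as for 5.87% of all genes in that direction, and ascending replicate 3 was the lowest ascending array. The difference was 0.48 ± 0.13 (SE, adjusted p = 0.53 by limma) and 0.57 without ascending replicate 3 (adjusted p = 0.055 by limma). The RefSeq spans of Hoxaas2 and Hoxa3 overlap at one end, and whether the probe sets share signal was not tested. Mir196b, a microRNA gene between Hoxa9 and Hoxa10, differed by -0.14 ± 0.11 and Hottip, a noncoding RNA gene upstream of Hoxa13, by -0.029 ± 0.076 (SE). The noncoding 5730596B20Rik differed by 0.057 ± 0.23 (SE). The longest RefSeq transcript unit of Hoxa3 starts beyond Hoxa6 and spans Hoxa4, Hoxa5 and Hoxa6, yet Hoxa3 did not share the low values of Hoxa5 and Hoxa6 on ascending replicates 1 and 2.

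**Figure D3:**
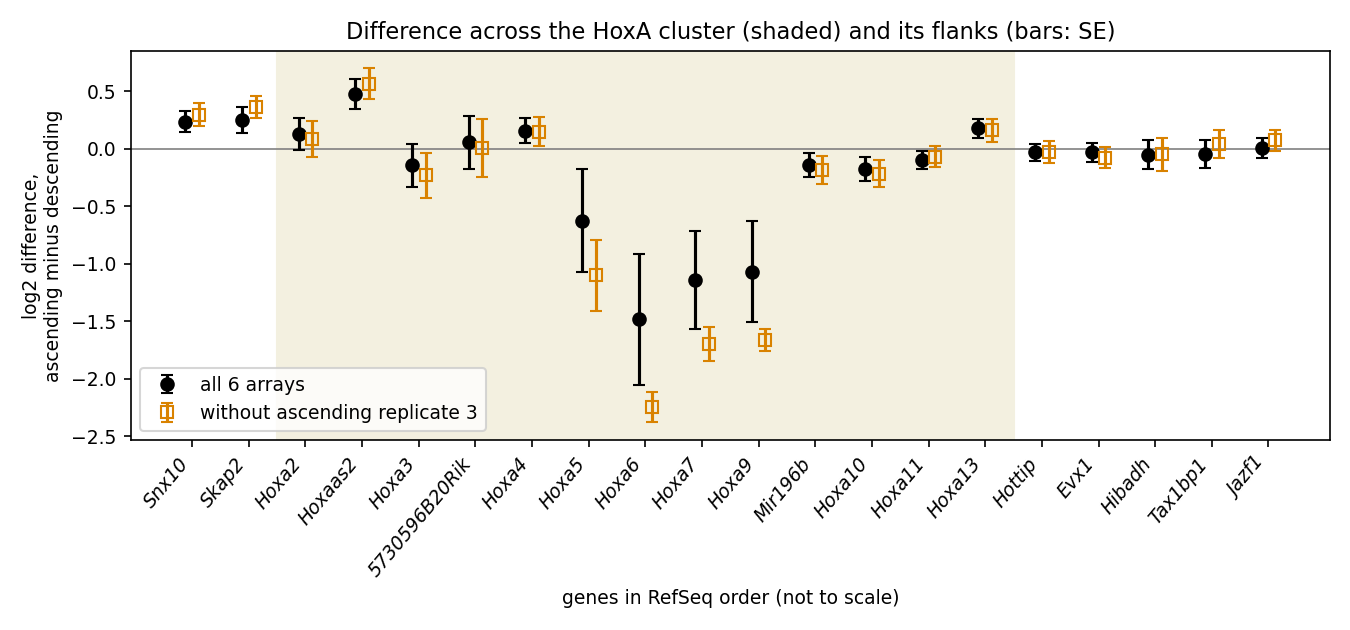
Fitted log2 difference, ascending minus descending aorta, with SE, for the HoxA cluster (shaded) with its noncoding genes and flanking genes in RefSeq order, for all 6 arrays (black) and without ascending replicate 3 (orange). Hoxa3 is placed midway between Hoxa2 and Hoxa4, not by its RefSeq span, which runs past Hoxa6. Values below -0.5 occur from Hoxa5 to Hoxa9 and at no other gene shown in either fit.

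The same-numbered genes of the other clusters descend from the same ancestral gene, and the 4 clusters could be compared by paralog group. In group 2, Hoxb2 differed by 0.36 ± 0.11 (SE, adjusted p = 0.53 by limma), higher and without overlap, as 5.87% of all genes, beside Hoxa2 at 0.13. In group 3, Hoxd3 differed by 0.38 ± 0.16 and Hoxb3 by 0.00063 ± 0.086 (SE), beside Hoxa3 at -0.14. Without ascending replicate 3 these paralogs differed by 0.36 (Hoxb2), 0.53 (Hoxd3) and 0.066 (Hoxb3). In group 4, Hoxa4 (0.16) and Hoxb4 (0.068) had small differences, while Hoxc4 differed by -0.78 ± 0.30 and Hoxd4 by -0.33 ± 0.17 (SE). The difference of Hoxa4 exceeded that of Hoxc4 by 0.94 (exact permutation p = 0.1) and that of Hoxd4 by 0.49 (exact permutation p = 0.1), with every ascending array above every descending array in both. In group 5, Hoxa5 differed by -0.62, Hoxb5 by -0.81 and Hoxc5 by -1.62. In group 6, Hoxa6 (-1.48) lay between Hoxb6 (-0.53) and Hoxc6 (-1.98), and the difference of Hoxa6 exceeded that of Hoxc6 by 0.50 (exact permutation p = 0.1), with 1.03, 0.46 and 0.012 on ascending replicates 1 to 3. In group 7, Hoxa7 differed by -1.14 and Hoxb7 by -0.60. Without ascending replicate 3 the paralogs of group 4 differed by 0.096 (Hoxb4), -1.16 (Hoxc4) and -0.42 (Hoxd4), beside 0.15 for Hoxa4. In that fit Hoxb5 differed by -1.14 and Hoxc5 by -2.68, beside -1.10 for Hoxa5. Hoxc6 differed by -2.99 and Hoxb6 by -0.78, beside -2.25 for Hoxa6, and Hoxb7 by -0.92, beside -1.70 for Hoxa7.

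In group 9, Hoxa9 differed by -1.07, against -0.38 for Hoxb9, -0.16 for Hoxc9 and -0.12 for Hoxd9. Without ascending replicate 3 Hoxb9 differed by -0.58 (adjusted p = 0.0268 by limma), Hoxc9 by -0.38 and Hoxd9 by -0.17, beside -1.66 for Hoxa9. Hoxb9 and Hoxc9 too were lower on ascending replicates 1 and 2 than on any descending array, as 18.9% of all genes were. The difference of Hoxa9 minus that of its paralog was -0.69 for Hoxb9 and -0.91 for Hoxc9 (exact permutation p = 0.2 each) and -0.95 for Hoxd9 (exact permutation p = 0.4). With ascending replicate 3 left out these values were -1.08, -1.28 and -1.49, each with both remaining ascending arrays below all descending arrays. In groups 10 to 13 no gene of any cluster differed by more than 0.18 in size over all arrays. An exact permutation p of 0.1 was also reached by Hoxa10 against Hoxc10 (-0.19) and Hoxa13 against Hoxd13 (0.30). The smallest such p over the 21 same-numbered pairs was 0.38 after Benjamini-Hochberg adjustment. As no p under 0.1 is possible in this design, none of these 21 pairs could pass at 0.05, and their differences are given as a description. In the fit of 5 arrays 4 of 9 HoxB genes, 4 of 9 HoxC genes and 1 of 9 HoxD genes passed, all lower, beside the 3 of 10 HoxA genes and 2.61% of all genes. Probe sets of close Hox paralogs can share sequence, so small differences between them are uncertain.

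**Figure D4:**
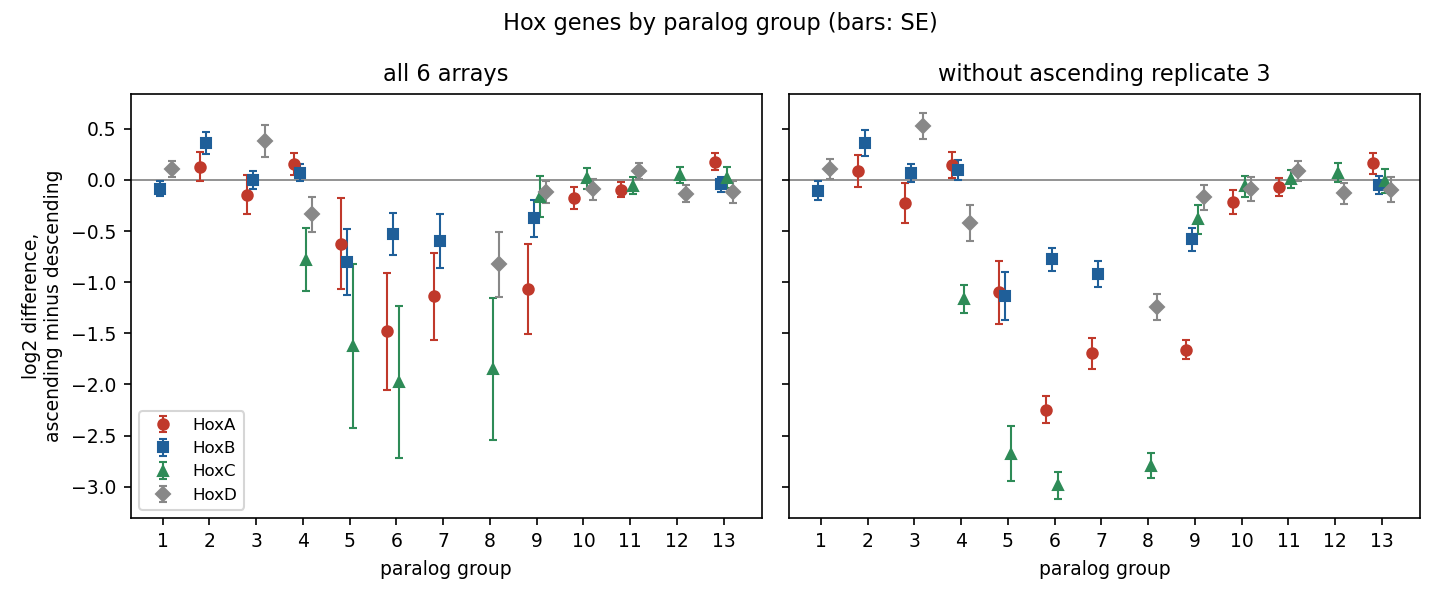
Fitted log2 difference, ascending minus descending aorta, with SE, of all measured Hox genes by paralog group, for all 6 arrays (left) and without ascending replicate 3 (right). HoxA genes of groups 5, 6, 7 and 9 are low, and in group 9 Hoxa9 is the lowest of the 4 clusters in both panels.

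The cofactors and regulators of Hox genes were examined as lists. Of 8 TALE cofactor genes 6 were higher in ascending aorta by their means and 0 passed in either fit by limma (median 0.15), with 2 higher at an unadjusted p under 0.05 over all arrays, a level that 3.96% of all genes reached in that direction. Pbx3, a partner of Hox proteins on DNA, stood at 10.9, 11.4 and 11.0 in ascending aorta against 10.7, 10.4 and 10.6 in descending aorta. Its groups did not overlap, as for 5.87% of all genes in that direction, and the difference was 0.54 ± 0.14 (SE, adjusted p = 0.53 by limma). Pbx4 differed by 0.35 ± 0.12 (SE), also without overlap, and Meis2 by 0.27 ± 0.13. The 7 upstream regulators include the Cdx genes that switch on trunk Hox genes in the early embryo. Of these 7 regulators 0 passed in either fit by limma, and 0 had an unadjusted p under 0.05 over all arrays. Egr2 differed by -0.22 ± 0.12 (SE), and its groups did not overlap, as for 8.95% of all genes in that direction. Cdx2 differed by 0.096 and Cdx4 by -0.064. Of 20 Polycomb and trithorax genes, whose complexes keep Hox genes silent or active, 0 passed in either fit by limma. At an unadjusted p under 0.05 over all arrays 1 was lower, a level that 5.33% of all genes reached in that direction. That gene, Ezh2, the Polycomb methyltransferase, differed by -0.31 ± 0.10 (SE), without overlap, as 8.95% of all genes in that direction. Bmi1 differed by 0.36 ± 0.16, Rnf2 by -0.19 ± 0.085 and Wdr5 by 0.16 ± 0.075 (SE).

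Retinoic acid, made by Aldh1a enzymes and removed by Cyp26 enzymes, is a known inducer of 3′ and middle Hox genes. Of 16 genes of this pathway 0 passed over all 6 arrays by limma. At an unadjusted p under 0.05 there was 1, Aldh1a2, higher, a level that 3.96% of all genes reached in that direction. Without ascending replicate 3 there were 4 that passed, all lower, where 2.61% of all genes passed in that direction. These 4 were Aldh1a3, Stra6, Crabp1 and Aldh1a1. Aldh1a3, a retinoic acid-making enzyme, stood at 7.65, 7.43 and 8.95 in ascending aorta against 8.92, 8.76 and 8.72 in descending aorta, with ascending replicates 1 and 2 low and replicate 3 the highest array, as for Hoxa9. Stra6, the retinol uptake receptor, differed by -0.83 ± 0.37 and Crabp1, a retinoic acid binding protein, by -1.19 ± 0.54 (SE). Without ascending replicate 3, the log2 difference was -1.26 for Aldh1a3, -1.29 for Stra6, -1.82 for Crabp1 and -0.60 for Aldh1a1 (adjusted p = 0.00114, 0.00418, 0.0201 and 0.0235 by limma). Aldh1a2 ran the other way, at 0.52 ± 0.20 (SE) over all arrays and at 0.51 without ascending replicate 3.

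Genes with profiles nearest to the 4 variable members were sought among all genes outside the cluster, by the root-mean-square distance between gene-centred log2 values over the 6 arrays. For Hoxa5 these were Lgals9 (distance 0.077), Kcnd2 (0.12) and Npl (0.13). For Hoxa6 they were Col8a1, a collagen of vessel walls (0.13), the endothelial sialomucin gene Emcn (0.14) and the leptin receptor gene Lepr (0.14). Hoxa7 and Hoxa9 shared the guidance factor gene Ntn1 (0.17 and 0.11) and the phosphodiesterase gene Pde2a (0.14 and 0.15), with the apelin receptor gene Aplnr (0.17) as the other neighbour of Hoxa7 and Itgbl1 (0.16) as that of Hoxa9. Within the cluster Hoxa7 and Hoxa9 were at 0.19 from each other, and Hoxa6 was at 0.31 from Hoxa9 and at 0.35 from Hoxa7. Hoxa5 lay farther off, at 0.45, 0.56 and 0.59 from Hoxa9, Hoxa7 and Hoxa6, beside 0.55 from Hoxa3. The distances rest mainly on the 2 low ascending arrays.

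Some markers of other cell types set ascending replicates 1 and 2 apart from the other arrays, as the middle HoxA genes did. Others did not: the cardiac marker Actc1 lay 0.40, 0.57 and 0.47 above its descending mean on ascending replicates 1 to 3. Of 8 mesothelial and epicardial markers 7 had a higher mean in ascending aorta, among them Aldh1a2 of the retinoic acid list. Their median relative to descending aorta was 1.70, 1.59 and 0.24 on ascending replicates 1 to 3. The summed linear signal of that list lay between 5834 and 12732 in ascending and between 4930 and 5650 in descending aorta. Of 9 cardiac muscle markers 9 were higher by their means, with a summed signal of 5492 to 9815 in ascending and 3984 to 5082 in descending aorta. Of 8 endothelial markers 8 were lower, with 12767 to 18765 in ascending and 19300 to 22457 in descending aorta, and of 7 macrophage markers 6 were lower, with 2462 to 6040 in ascending and 5815 to 6016 in descending aorta. Without ascending replicate 3, 5 mesothelial and epicardial and 2 cardiac muscle markers passed, all higher, and 4 endothelial and 3 macrophage markers, all lower, where 4.68% of all genes passed in either direction. Over all 6 arrays 8727 of 19938 genes had a higher and 11211 a lower mean in ascending aorta. Lists for cartilage, neurons, skeletal muscle, red blood cells and foregut epithelium had median differences between -0.21 and -0.011 over all arrays. Their medians lay between -0.33 and -0.017 without ascending replicate 3. In that fit Acan (0.84) and Elavl4 (0.92) passed higher and Col2a1 (-0.47) lower (adjusted p = 0.0436, 0.00243 and 0.0441 by limma). These were the only markers to pass in those lists, which held 7, 5, 6, 4 and 7 measured genes in the order named. Of all genes 4.68% passed in that fit, in either direction. RMA values have no zero, so no marker can be called absent. The part of these cell types in the HoxA values was not tested, and in bulk tissue fewer cells of a type and less RNA per cell cannot be told apart.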

How the data were processed

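Log2 expression values per probe set were used as deposited. The authors made them with RMA and Partek 6.6, per the submitters' processing notes, which give no settings. RMA equalises the arrays and shrinks differences of dim genes. That the scale is log2 follows from the range of values, 2.53 to 14.6. The genome build behind the probe sets is not given in the sources used here. Of 35556 probe sets 21789 carried 1 gene symbol in the platform annotation, 1621 several and 12146 none. The probe set with the highest mean was kept for each of 19938 genes, and each HoxA gene had 1. No filter was applied.

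The segments were compared with limma 3.58.1 (R 4.3.3) on all 6 arrays, two-sided, at 0.05 after a Benjamini-Hochberg adjustment across the genes, and the fit was tested on simulated data. Differences are ascending minus descending. Same-numbered replicates were not paired by the labels, and their deviations correlated at -0.080, -0.055 and 0.024. The text names all members, up to 4 genes of each list by smallest p, the flanking and noncoding genes of the cluster, same-numbered Hox genes, and the 3 nearest profiles of members with a range of at least 1. Tax1bp1 and Jazf1 were named beyond that rule, after their values were seen. Acta2, Xist and Aldh1a1, which passed without ascending replicate 3, also fall outside it. The members and lists were chosen with earlier results of these data known. Promoter windows came from a RefSeq table of GRCm38.p6. Tables and plots were made with Python 3.11.15, pandas 2.3.3, scipy 1.17.1 and matplotlib 3.10.9. Lists with few measured members lack genes not analysed here.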

Additional observations from a re-analysis of the deposited data

How the results depend on the processing

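The comparison was repeated under 14 alternative settings: repeated quantile normalization, median-centring, a filter at the 25th percentile of mean expression (which removed Hoxa11), averaging the probe sets within a gene, robust variance estimation with a trend, no moderated variance, weights per array, a replicate block, and leaving out each of the 6 arrays. Over all genes 0 passed in 13 of these settings and 933 passed without ascending replicate 3. Likewise 0 HoxA members passed in those 13 and 3 passed without ascending replicate 3. Leaving out 1 array in turn thus gave 0 to 933 genes and 0 to 3 members. With the replicate block 0 genes and 0 HoxA members passed, and the median difference of the members stayed at -0.16. That median lay between -0.215 and -0.0981 over the settings that kept ascending replicate 3. Of the 139 member values 1 reversed, Hoxa3 at 0.050 without descending replicate 1 (-0.311 to 0.050 over the arrays left out). The precision is limited by 3 arrays a group, and the values carry no detection calls.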
